A study of Rattus norvegicus with 2 samples.

Results

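C1q-expressing macrophages of rat cartilage preparations were the cells with at least 20000 CPM of the lysozyme transcript Lyz2 and at least 3 molecules of C1qa, C1qb and C1qc together. Cells with 5 or more molecules of the 4 cell-cycle transcripts Top2a, Cdk1, Cenpf and Ube2c, or with 1000 CPM or more of Mmp9, were left out. CPM is a gene's unique molecular identifiers (UMIs, each marking 1 captured RNA molecule) per 1000000 UMIs of the same cell or sum of cells. The rule held for 1332 of the 13758 cells kept in the series, 361 of 5349 in the control library and 971 of 8409 in the arthritis library. These cells are called C1q macrophages here. The values of the genes in the rule chose them and are given as a description only.

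The study profiled single cells from cartilage of Lewis rats, and its title names articular chondrocytes, the matrix-making cells of joint cartilage. The control library came from Lewis rats with no treatment, which the design text calls sham. The other library came from Lewis rats with collagen-induced arthritis (CIA), immunised with type II collagen, together with Complete Freund's Adjuvant, and collected on day 14. Age, sex, the joint and the number of rats per library were not given in the sources used here. Each group was thus 1 library, so no difference had a replicate check, no test was run, and each comparison is between these libraries and not between the conditions. Intervals are 95% and cover counting error only.

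C1q is the recognition molecule of the classical complement pathway, assembled from the chains encoded by C1qa, C1qb and C1qc. Most complement proteins are made in the liver, whereas C1q is made largely by macrophages and dendritic cells, and it binds immune complexes and dying cells. In joints, C1q-expressing macrophages include resident cells of the synovium, a tissue that lies against cartilage, and they are known for taking up apoptotic cells and for apolipoprotein E, a lipid carrier. Trem2 encodes a lipid-sensing receptor of macrophages and Folr2 a folate receptor found on resident macrophages.

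The 3 genes lie side by side on chromosome 5 of the RefSeq assembly GRCr8 in the order C1qb, C1qc, C1qa, with 0 other genes between them. To show the sequence beside the genes that define these cells, the 250 bases before the start of C1qb and C1qa are shown, from RefSeq, 5′ to 3′ on the gene's strand. Entries for 2 of the 3 genes matched. The windows are chr5:154407828-154408077 for C1qb and chr5:154419934-154420183 for C1qa, both on the minus strand of GRCr8. Capitals mark GAGGAA, the core bound by the myeloid factor PU.1, and TGCTGA, the core bound by Maf factors, each searched on both strands (TTCCTC and TCAGCA on the other). The motifs did not overlap each other.
C1qb: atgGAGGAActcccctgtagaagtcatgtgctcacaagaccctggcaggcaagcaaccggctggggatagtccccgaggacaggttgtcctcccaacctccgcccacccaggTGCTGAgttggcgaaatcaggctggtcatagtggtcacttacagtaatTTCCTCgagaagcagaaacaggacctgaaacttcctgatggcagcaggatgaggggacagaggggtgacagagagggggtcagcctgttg
C1qa: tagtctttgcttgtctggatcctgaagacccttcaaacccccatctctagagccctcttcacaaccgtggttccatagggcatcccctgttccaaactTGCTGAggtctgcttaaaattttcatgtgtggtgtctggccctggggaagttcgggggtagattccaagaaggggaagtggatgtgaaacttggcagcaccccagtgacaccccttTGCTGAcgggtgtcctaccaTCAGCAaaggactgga
The C1qb window held 2 GAGGAA matches and 1 TGCTGA match. The C1qa window held 0 GAGGAA matches and 3 TGCTGA matches. Of 33465 windows of the same length, 23.3% held GAGGAA, 15.1% held TGCTGA and 3.66% held both, so either motif alone is common. A match describes letters in a window and is not a measured site.

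C1q macrophages made up 6.75% of the cells kept in control (95% exact Clopper-Pearson interval 6.09 to 7.45) and 11.55% of those kept in CIA (10.87 to 12.25). Among Lyz2-high cells, meaning all cells with at least 20000 CPM of Lyz2, their share was 32.1% (29.3 to 34.9) in control and 31.1% (29.5 to 32.8) in CIA. The Lyz2-high cells as a whole were 21.05% of control and 37.14% of CIA cells. The larger share of C1q macrophages in the CIA library therefore went with a larger share of all Lyz2-high cells, while the split within those cells differed by less than its counting intervals. With 1 library per group, library and condition cannot be told apart. The remaining Lyz2-high cells were 647 control and 1855 CIA cells under the C1q limit (C1q-low cells), 118 and 295 cells over the cell-cycle limit, and 0 and 2 cells with high Mmp9.

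Among Lyz2-high cells with 3 or more C1q UMIs, 25 of 386 in control (6.48%, 4.24 to 9.41) and 48 of 1019 in CIA (4.71%, 3.49 to 6.197) were over the cell-cycle limit and so left out. Under the C1q limit the counts were 93 of 740 (12.6%, 10.3 to 15.2) and 247 of 2104 (11.7%, 10.4 to 13.2). Cells over the cell-cycle limit were thus a smaller part of the cells at or above the C1q limit than of those under it, in both libraries. Genes of the rule set both limits, so these shares describe the cells and were not tested. Deeper cells meet either limit more easily, since both are set in UMIs and not in CPM, and the cells over the cell-cycle limit had medians of 17572 and 15668 UMIs.

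C1q macrophages held a median of 13877 UMIs and 2695 genes in control and 9171 UMIs and 2168 genes in CIA. Other Lyz2-high cells had medians of 12144 and 10018 UMIs. As a reference outside the myeloid cells, 2641 control and 4126 CIA collagen-rich cells were used, with at least 10000 CPM of Col1a1 and Col3a1 together and under 5000 CPM of Lyz2, at medians of 12687 and 11240 UMIs. Of the 14078 barcodes, 52 occurred in both libraries, 1 of them among the C1q macrophages. The mitochondrial share of C1q macrophages, counted over gene symbols that begin with Mt-, had medians of 5.46% and 5.99%. The gene model of mitochondrial ribosomal RNA given below lacks that prefix and is outside this share.

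C1q UMIs ran across the limit without a gap, and the cells above it covered a wide range. Among Lyz2-high cells inside the other limits, 440 control cells held 0 C1q UMIs and 162 held 1. Above the limit, 32 held 3 to 5, 65 held 6 to 15 and 102 held 16 to 40. The CIA numbers were 1302, 428, 130, 175 and 258. A C1q macrophage held a median of 36 C1q UMIs in control (5th to 95th percentile 4 to 167, highest 379) and 31 in CIA (3 to 153.5, highest 313). Cells exactly at 3 UMIs numbered 17 of 361 (4.71%) and 55 of 971 (5.66%), and 45 and 125 cells lay just outside at 2 UMIs. Just inside, at 3 UMIs, Apoe stood at 30254 CPM in control and 34918 in CIA. Just outside, at 2 UMIs, it stood at 31754 and 22081 CPM, so control cells on the 2 sides of the limit carried like amounts of Apoe. CIA cells just inside the limit carried more Apoe than those just outside.

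The chains were present in a steady proportion. C1qb supplied 40.2% of the C1q UMIs in control and 40.7% in CIA, C1qa 32.5% and 30.5%, and C1qc 27.3% and 28.9%. Summed over the cells, C1qa stood at 1167 and 1405 CPM, C1qb at 1444 and 1875 CPM, and C1qc at 980.6 and 1331 CPM. From control to CIA these are ratios of 1.203 (1.17 to 1.24), 1.30 (1.27 to 1.33) and 1.36 (1.32 to 1.40), below the size taken here as a change. Collagen-rich cells held 18.7 and 27.9 CPM of C1q, and all cells under the Lyz2 limit together 93.6 and 100.6 CPM. C1q-low cells held 29.4 and 33.7 CPM, a level that the rule itself keeps low and that measures no background. At least 1 C1q UMI was found in 21.05% and 26.2% of collagen-rich cells, against 32.0% and 29.8% of C1q-low cells, and 3 or more in 0.606% (0.347 to 0.982) and 0.970% (0.694 to 1.32) of collagen-rich cells.

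The label of tissue macrophages was checked against its markers. To compare shares of cells, each cell was thinned to 4000 UMIs, which left out no C1q macrophage, and 500 collagen-rich cells per library were thinned likewise. Trem2 was then found in 90.9% of C1q macrophages in control and 94.1% in CIA (unthinned 97.8% and 97.9%), against 4.2% and 5.4% of collagen-rich cells. Folr2 was found in 89.2% and 94.6% (unthinned 98.9% and 98.6%), against 7.6% and 7.2%. Both receptors were therefore near universal, and far above the collagen-rich level. They were also common in other Lyz2-high cells thinned likewise, at 62.0% and 78.35% for Trem2 and 61.05% and 77.3% for Folr2. The mannose receptor Mrc1 was found in 47.4% and 57.2% of C1q macrophages (unthinned 76.7% and 78.0%), against 0.8% and 2.0% of collagen-rich cells. Other Lyz2-high cells held it in 28.9% and 33.5%.

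Markers of resident macrophages ranged from common to rare. Pf4, a chemokine gene, was found in 62.3% and 62.8% of thinned C1q macrophages (unthinned 82.3% and 74.7%), against 2.4% and 4.0% of collagen-rich cells. Adgre1, the F4/80 gene, was found in 20.2% and 18.3% of C1q macrophages (unthinned 42.9% and 28.6%). It was found in 0.4% and 0.2% of collagen-rich cells and 5.10% and 3.35% of other Lyz2-high cells. The haemoglobin scavenger receptor Cd163 was found in 1.66% and 2.58% of thinned C1q macrophages (unthinned 2.22% and 4.12%), and Vsig4, a complement receptor of resident macrophages, in 1.39% and 1.85% (unthinned 3.05% and 2.68%). Both were in 0 of the 500 thinned collagen-rich cells of each library, which allows up to 0.735% of cells with a UMI at that depth and says nothing of cells that express the gene without a captured UMI. The hyaluronan receptor Lyve1 was found in 5.26% (3.20 to 8.10) in control and 16.2% (13.9 to 18.6) in CIA (unthinned 12.5% and 24.0%), against 1.4% and 1.0% of collagen-rich cells. The group thus carried general marks of a tissue macrophage, of which Trem2 and Folr2 were also common in other Lyz2-high cells. Cd163, Vsig4 and Lyve1 were each found in a minority of its cells, thinned or not. These are rates of detection, and no subtype was defined.

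Markers of other cell types were summed in the same cells. The 7 fibroblast markers came to 3277 CPM in control and 2977 in CIA C1q macrophages, against 3457 and 3062 in other Lyz2-high cells and 88245 and 84525 in collagen-rich cells. In control, 6 of the 7 were detected and Col1a2 was at 0; in CIA all 7 were detected. Col1a1 had a median of 1084 and 832 CPM per C1q macrophage, a level shared with the other Lyz2-high cells. The 6 chondrocyte markers summed to 202 CPM in control and 21.6 in CIA, with Cnmd at 0 in CIA. Dendritic markers summed to 33.9 and 40.5 CPM, with Xcr1 at 0 in both libraries, Clec9a at 0 in control, and Ccr7 and Siglech at 0 in CIA. T or NK markers summed to 13.7 and 22.2 CPM, B-lineage markers to 6.77 and 0.293 CPM, and endothelial markers to 21.6 and 20.7 CPM. Osteoclast markers summed to 605 and 653 CPM, against 827 and 803 in other Lyz2-high cells, with Calcr at 0. What part these RNAs have in the results was not tested, apart from the values without cells rich in them.

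**Figure D1:**
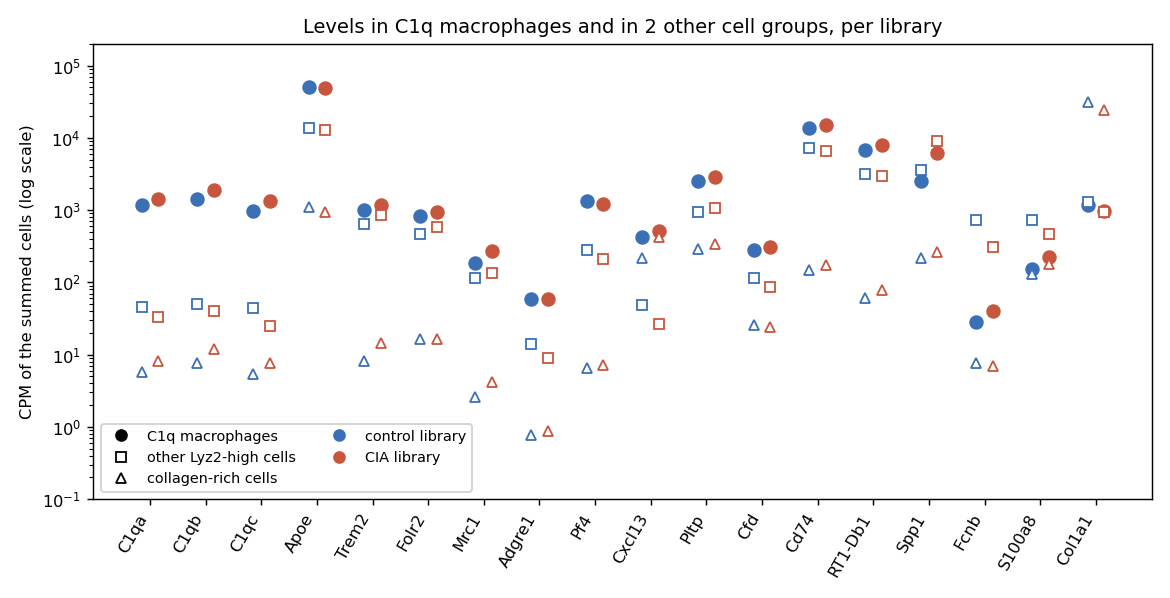
CPM (log axis) of the markers and leading genes in summed C1q macrophages, other Lyz2-high cells and collagen-rich cells, with 1 point per library and cell group. Apoe stands near 50000 CPM in the C1q macrophages of both libraries, while Trem2 and Folr2 lie near the level of other Lyz2-high cells and well above the collagen-rich cells.

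Against other Lyz2-high cells, C1q macrophages held more RNA of Apoe, Apoc1 and Pltp, of the complement genes Cfd and C6, and of 7 of 17 measured genes of resident macrophages, and less of 8 of 11 measured monocyte genes. A gene passed the size rule when its CPM differed at least 2-fold with an interval wholly beyond 1.5-fold, and when it had at least 100 UMIs over both sums. Of 7649 genes measured in both libraries, 67 passed as higher in each (0.876%) and 186 as lower in each (2.43%). The higher ones include the 3 C1q genes and the lower ones the 4 cell-cycle genes of the rule, and many of the lower ones follow from leaving out cycling cells. Against C1q-low cells alone, where cycling cells are absent on both sides, 49 of 7123 genes passed as higher (0.688%) and 44 as lower (0.618%). This contrast is the one that chose the cells, so the counts describe them and support nothing. The median gene stood at a log2 ratio of -0.20 in control and -0.16 in CIA. TMM scaling, which centres on the bulk of genes, shifts all ratios up by 0.17 and 0.13 and raises the higher share of the calls from 26.5% to 39.0%.

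**Figure D2:**
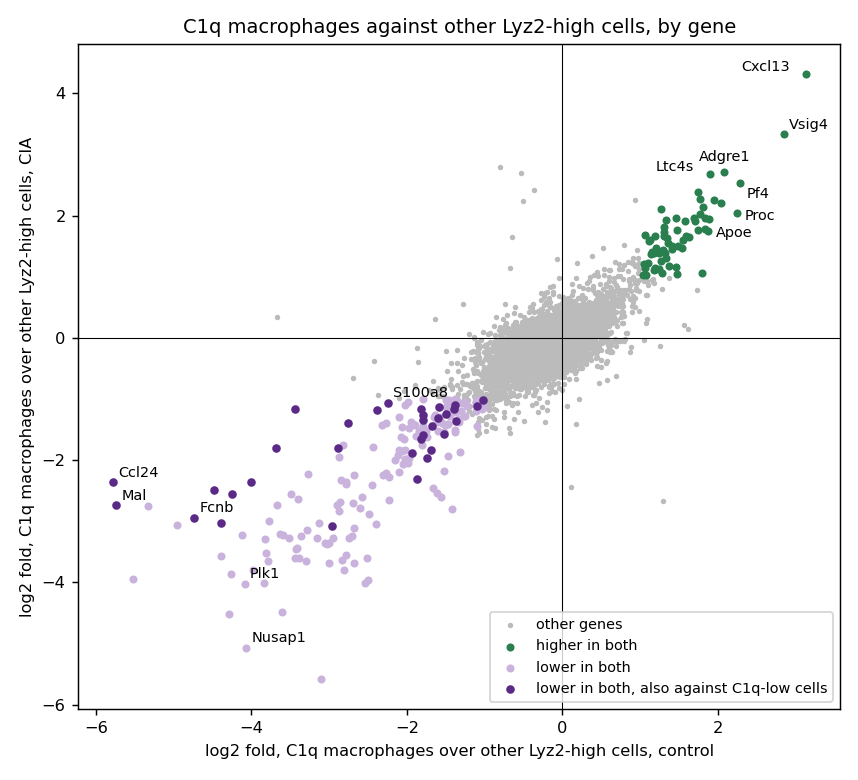
Each point is a gene: the log2 ratio of C1q macrophages over other Lyz2-high cells in the control library (x axis) against the same in the CIA library (y axis). Coloured points passed the size rule in both libraries, with Cxcl13 farthest to the upper right and Ccl24 and Mal farthest to the left; the C1q and cell-cycle genes that chose the cells are not drawn.

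Among apolipoproteins and lipid carriers, Apoe was the most abundant gene to pass. It stood at 51124 CPM in control C1q macrophages against 13847 in other Lyz2-high cells, and at 49134 against 12800 in CIA, ratios of 3.69 (3.67 to 3.71) and 3.84 (3.82 to 3.86). Apoc1, a small apolipoprotein encoded beside Apoe, stood at 450 against 134 CPM and at 388 against 114 CPM, ratios of 3.35 (3.14 to 3.58) and 3.41 (3.25 to 3.58). Apoc4 was higher at 25.4 against 7.28 and 19.0 against 4.32 CPM. Pltp, which transfers phospholipids between lipoproteins, was higher by 2.67 (2.61 to 2.74) and 2.73 (2.69 to 2.78), at 2551 and 2918 CPM in C1q macrophages. These were the genes that passed on the list of Trem2 and lipid handling: 3 of 25 measured members (Apoe, Apoc1, Pltp; Apoc4 passed outside the list) were higher, 0 were lower, and the list's median log2 ratio was 0.01 in control and 0.13 in CIA. Trem2 itself stood at 992 against 651 CPM and 1196 against 843 CPM, ratios of 1.52 and 1.42 that did not pass. Gpnmb, a glycoprotein of lipid-laden macrophages, stood at ratios of 1.32 and 1.23, and Spp1, which encodes osteopontin, at 0.708 and 0.686. Against C1q-low cells, Apoe, Apoc1 and Pltp were again higher, and Cd36 of the lipid-handling list was lower.

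Of the complement genes beyond C1q, 4 passed. Cfd, the factor D protease that starts the alternative pathway's convertase, was higher at 284 against 115 CPM in control and 309 against 87.3 in CIA, ratios of 2.48 (2.30 to 2.67) and 3.54 (3.35 to 3.74). C6, a component of the membrane attack complex, was higher at 62.6 against 15.2 and 98.1 against 21.2 CPM, ratios of 4.12 (3.42 to 4.99) and 4.62 (4.15 to 5.14). Vsig4 was higher at 18.1 against 2.52 and 12.9 against 1.28 CPM, but from 11 control and 26 CIA cells, with 62.6% of its control UMIs in 1 cell. Without the top cells its CIA log2 ratio moved from 3.33 to 4.10. Cd55, which takes convertases apart on the cell's own surface, was lower at 17.2 against 55.5 and 26.8 against 96.2 CPM, 3.23-fold and 3.59-fold. In all, 3 of the 16 measured complement members were higher and 1 was lower, with medians of 0.12 in both libraries. C3, the central component, stood at 12.1 against 19.2 CPM in control and 17.0 against 7.68 in CIA, so its ratio lay on opposite sides of 1.

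Genes of resident macrophages stood well above the median of all genes. Of 17 measured members, 7 were higher in both libraries (Lyve1, Vsig4, Pf4, Selenop, Adgre1, Ms4a7 and Cd4) and 0 were lower, with medians of 1.05 and 1.01. Pf4, a chemokine of platelets and some macrophages, stood at 1350 against 277 CPM and 1204 against 209 CPM, ratios of 4.87 (4.67 to 5.09) and 5.76 (5.58 to 5.95). Adgre1, which encodes the macrophage antigen F4/80, was higher at 59.5 against 14.0 and 58.9 against 8.997 CPM. Selenop, a selenium carrier, was higher by 3.25 and 3.88, and Ms4a7 by 2.99 and 3.78. Cd4, which rat macrophages carry, was higher by 2.44 and 2.10, and Cd8a by 2.31 and 2.77. Folr2 stood at 820 against 461 CPM and 957 against 586 CPM, ratios of 1.78 and 1.63 that did not pass. Cd163 had 28 UMIs in control and 115 in CIA C1q macrophages, against 2 and 4 in the other Lyz2-high cells, too few in control to be measured.

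Outside the C1q genes, Cxcl13, the chemokine that draws B cells, had the largest ratio of the genes that passed, ranked by the smaller of its 2 libraries. It stood at 420 against 47.9 CPM in control and 521 against 26.2 CPM in CIA, ratios of 8.77 (7.98 to 9.66) and 19.9 (18.4 to 21.6). Its UMIs came from few cells: 77.6% of control and 80.4% of CIA C1q macrophages had 0, and 5.54% (3.42 to 8.43) and 4.63% (3.40 to 6.15) held 1000 CPM or more. The top cell held 17.4% of the control UMIs and 8.50% of the CIA UMIs. Leaving out the top cell of each sum moved the control log2 ratio from 3.13 to 3.91, over 1.5 times. After thinning, Cxcl13 was found in 10.3% of C1q macrophages in both libraries (unthinned 22.4% and 19.6%), and in 16% and 19.2% of collagen-rich cells, which therefore give no background level for this gene.

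Smaller numbers passed on other lists. Ltc4s, the synthase of leukotriene C4, was higher at 59.1 against 15.8 and 151 against 23.6 CPM, ratios of 3.74 (3.10 to 4.52) and 6.401 (5.82 to 7.05). Proc, the zymogen of the anticoagulant protein C, was higher at 16.3 against 3.41 and 11.03 against 2.68 CPM. Atp1b1, a subunit of the sodium pump, was higher by 3.86 and 4.76, and Tmem37 by 3.56 and 3.43. Gas6, which bridges dying cells to Mertk and Axl, was higher by 2.40 and 2.38, and the integrin gene Itgb5 by 2.55 and 3.10. They were the 2 of 13 measured genes of apoptotic cell uptake to pass, with 0 lower and medians of 0.04 and 0.17. The receptor Mertk stood at ratios of 2.59 and 1.98, of which the CIA one missed 2-fold, and Axl at 1.48 and 1.51. Of 26 transcription factors, Spic, a factor of iron-recycling macrophages, was the 1 higher (2.45 and 2.72) and 0 were lower. Maf stood at 2.07 and 2.27, too close to 1.5-fold in its control interval to pass. The growth factor genes Pdgfc, Gdf15 and Gas6 were higher among 17 measured, and 0 were lower. Against C1q-low cells, Gas6, Itgb5 and Pdgfc were again higher, Gdf15 did not pass, and Cd36 of the uptake list was lower. Gdf15 was also under 2-fold against other Lyz2-high cells in CIA by the mean of per-cell CPM.

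MHC class II genes, which present antigen to CD4 T cells, stood near the limit of the rule. RT1-Db1 was higher at 6911 against 3118 CPM in control and 7875 against 2958 in CIA, and RT1-Bb at 3504 against 1688 and 3808 against 1648 CPM. They were 2 of 11 measured members, with 0 lower and medians of 0.52 and 1.2. Cd74, the invariant chain, stood at 13762 against 7289 CPM and 15111 against 6556 CPM, ratios of 1.89 and 2.31 of which the control one missed 2-fold. The count was 5 of 11 under TMM scaling and 0 of 11 against C1q-low cells, so it rests on the scaling and on the cells compared.

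Monocyte genes were the lower side. Of 11 measured, 8 were lower in both libraries, among them Fcnb, S100a8, S100a9, S100a6, Vcan, Hp and Spn, and 0 were higher, with medians of -1.50 and -1.06. Against C1q-low cells 6 of 11 passed, S100a9 and Spn not among them. Under TMM scaling 4 did, with S100a8, S100a9, S100a6 and Spn under 2-fold in CIA. Thinned, S100a9 was found in 30.2% of control and 33.6% of CIA C1q macrophages, against 34.6% and 30.4% of other Lyz2-high cells. S100a8 was found in 26.3% and 27.0%, against 34.8% and 28.4%. The highest other CIA cells held 209010 CPM of S100a8 and 340165 of S100a9. Fcnb, which encodes the ficolin of monocytes, stood at 27.8 CPM in control C1q macrophages against 643 in C1q-low cells and at 39.5 against 283 in CIA, 23.1-fold and 7.17-fold lower. In control 1 cell held 38.8% of the Fcnb UMIs, and without the top cells the log2 ratio to other Lyz2-high cells moved from -4.73 to -5.41. The matrix proteoglycan gene Vcan was 3.30-fold and 2.79-fold lower, and the haptoglobin gene Hp 5.73-fold and 2.51-fold lower.

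Further genes lower than in C1q-low cells were led by Mal and Ccl24. Mal, which encodes a membrane-raft protein, was 66.5-fold and 7.80-fold lower. In CIA 1 cell held 73.3% of its UMIs, and without the top cells its log2 ratio to other Lyz2-high cells moved from -2.74 to -4.52 in CIA and from -5.74 to -6.64 in control. Ccl24, an eosinophil-attracting chemokine, stood at 0.549 against 26.1 CPM in control and 14.7 against 89.5 CPM in CIA. The control value rests on 2 cells, and without the top cells its log2 ratio to other Lyz2-high cells moved from -5.78 to -7.09. Itgb7, an integrin of gut-homing leukocytes, was 15.97-fold and 5.39-fold lower, the antimicrobial peptide gene Camp 3.58-fold and 3.74-fold, and the chemokine receptor gene Ccr1 3.98-fold and 3.40-fold. Without the top cells the control log2 ratio of Camp to other Lyz2-high cells moved from -2.88 to -1.73. Slpi, a secreted protease inhibitor, was 3.58-fold and 2.85-fold lower, and Il1rn, the natural blocker of interleukin-1, 2.24-fold and 2.30-fold. Against all other Lyz2-high cells, ranked by the weaker of the 2 libraries, the lowest ratios belonged to mitotic genes (Kif2c, Nusap1, Plk1, Rrm2), as the rule fixes, and to Rnase2, an eosinophil-type ribonuclease at 0 UMIs in the C1q macrophages of both libraries. With a floor of 3 counts per sum, Rnase2 was at least 46.1-fold lower in control and at least 15.4-fold lower in CIA.

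Lists with 0 members past the rule in both libraries were cytokines and inflammatory effectors (16 measured), Fc and pattern receptors (19), interferon response (14), immediate-early genes (23), heat-shock genes (10), iron and haem genes (12) and glycolysis and hypoxia genes (17). Their medians ran from -0.43 for glycolysis and hypoxia to 0.44 for iron and haem, both in control. On the list of growth factor and cytokine receptors, Ccr1 was lower and 0 of 18 were higher. Csf1r, the receptor that keeps macrophages alive, stood at 381 against 336 CPM and 464 against 395 CPM, and the lysosomal marker Cd68 at ratios of 1.25 and 1.21. These general markers did not pass the rule, whereas Adgre1, given above, did.

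Across all Lyz2-high cells left after the cell-cycle and Mmp9 limits, levels moved along with the number of C1q UMIs on both sides of the limit. With 0 C1q UMIs, Apoe stood at 14141 CPM in control and 13169 in CIA. With more than 100 it stood at 60185 and 72707 CPM. Pltp went from 1037 to 3207 CPM in control and from 1166 to 4276 in CIA, and the protease inhibitor gene Cst3 from 1787 to 4982 and from 1574 to 7370 CPM. Adgre1 went from 18.4 to 82.8 CPM and from 9.23 to 121 CPM.

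Other genes ran the other way along the same axis. Fcnb stood at 820 and 327 CPM in cells with 0 C1q UMIs and at 9.30 and 5.32 CPM in those with more than 100. Vim, which encodes vimentin, went from 7756 to 3860 CPM and from 9267 to 3904 CPM. The calcium-binding protein gene S100a4 went from 3257 to 1542 and from 4755 to 2041 CPM. Trem2 spanned a smaller range, from 649 to 1221 CPM in control and from 850 to 1235 in CIA. Cd74 was highest in cells with 41 to 100 C1q UMIs, at 15049 and 18279 CPM. The bins are set in UMIs, and their median depths differed without a steady order: the lowest and highest were 10795 UMIs (0 C1q UMIs) and 16084 UMIs (more than 100) in control, and 8734 UMIs (41 to 100) and 11552 UMIs (2) in CIA.

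**Figure D3:**
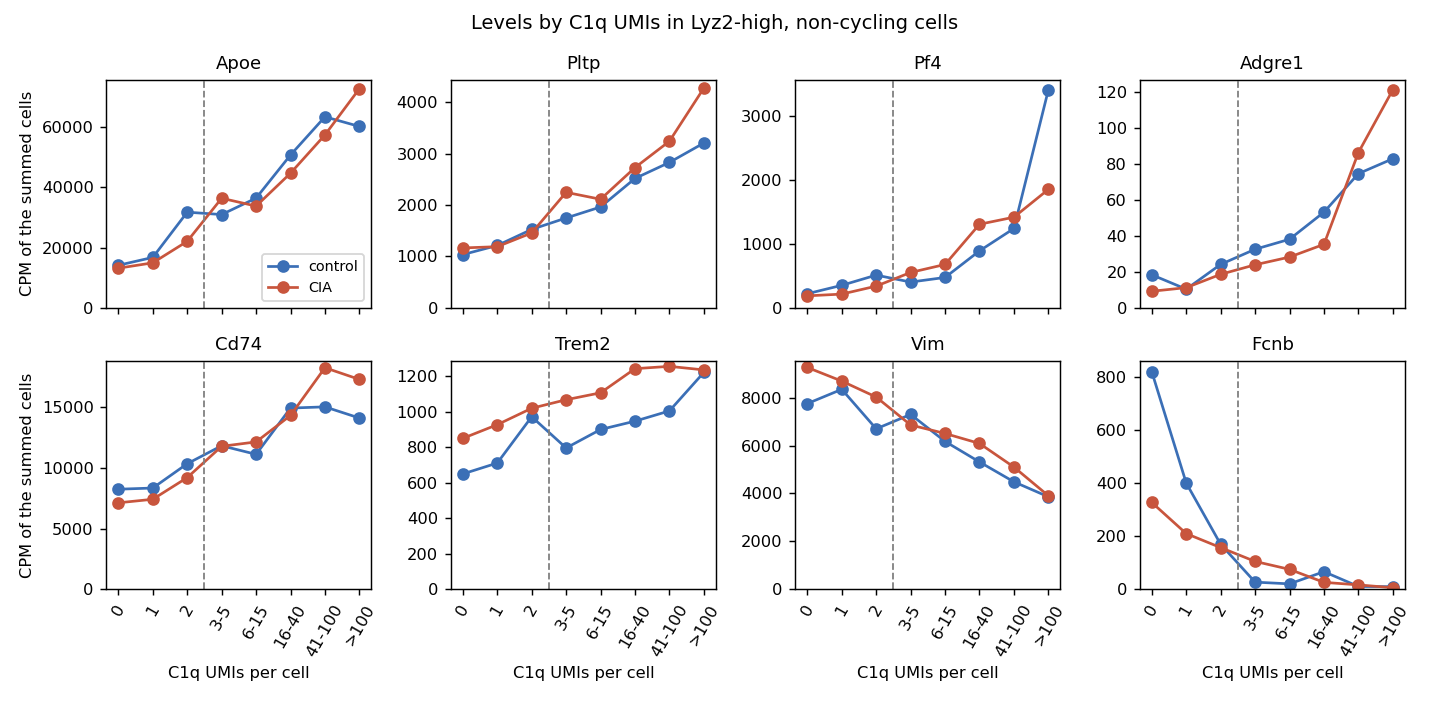
CPM of 8 genes (y axes) in Lyz2-high cells grouped by their number of C1q UMIs (x axis), with 1 line per library. Apoe climbs from 14141 to 60185 CPM in control and from 13169 to 72707 CPM in CIA, while Vim and Fcnb run downward in both.

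Among themselves the C1q macrophages differed widely in Apoe, MHC class II and Spp1, the quantities followed per cell here. Apoe had a median of 41958 CPM per cell in control (5th to 95th percentile 374 to 146375) and 39990 in CIA (516 to 154757). Cells of 50000 CPM or more were 43.8% of control and 43.7% of CIA C1q macrophages, and cells under 5000 CPM were 19.4% (15.4 to 23.9) and 15.8% (13.5 to 18.2). The distribution of Apoe was thus much the same in the 2 libraries and reached from near 0 to a large part of a cell's RNA.

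The summed MHC class II level over 5 genes (Cd74, RT1-Da, RT1-Db1, RT1-Ba and RT1-Bb) had a median of 28711 CPM in control and 36590 in CIA. Cells under 5000 CPM were 23.8% (19.5 to 28.6) of control and 13.3% (11.2 to 15.6) of CIA C1q macrophages. Cells low in these genes were thus a larger part of the C1q macrophages in the control library than in the CIA library. The intervals cover counting error only. Spp1, the gene of the matrix protein osteopontin, had a median of 414 and 743 CPM. Cells of 10000 CPM or more were 5.82% (3.64 to 8.76) of control and 13.8% (11.7 to 16.1) of CIA C1q macrophages.

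Correlations over cells were taken within each library (361 and 971 cells, log of UMIs thinned to 4000), with no p since cells of 1 library are not replicates. They share the library and the choice by C1q, and low counts pull them toward 0. The 3 C1q chains, whose sum chose the cells, correlated with each other at Pearson r of 0.70 or above in each pair of the control library, and up to 0.76 in CIA. The 5 MHC class II genes correlated at 0.88 to 0.95. Apoe went with Pltp (0.60 and 0.64), Ifitm1, an interferon-induced membrane protein gene (0.53 and 0.54), and Cfd (0.45 and 0.51). Apoe ran against Vim (-0.50 and -0.49), S100a6 (-0.51 and -0.47) and S100a4 (-0.48 and -0.46). Spp1 went with Prdx5, a peroxiredoxin (0.44 and 0.53), and the fatty acid carrier gene Fabp4 (0.41 and 0.42), and ran against RT1-Da (-0.33 and -0.39). Vim, S100a4 and Crip1 went together, with Vim and S100a4 at 0.67 and 0.71. Cxcl13 went weakly with Pf4 (0.31 and 0.38). The partners of Apoe and Spp1 were taken from the highest and lowest of 1797 genes compared. The other pairs came from a smaller set of chosen genes.

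**Figure D4:**
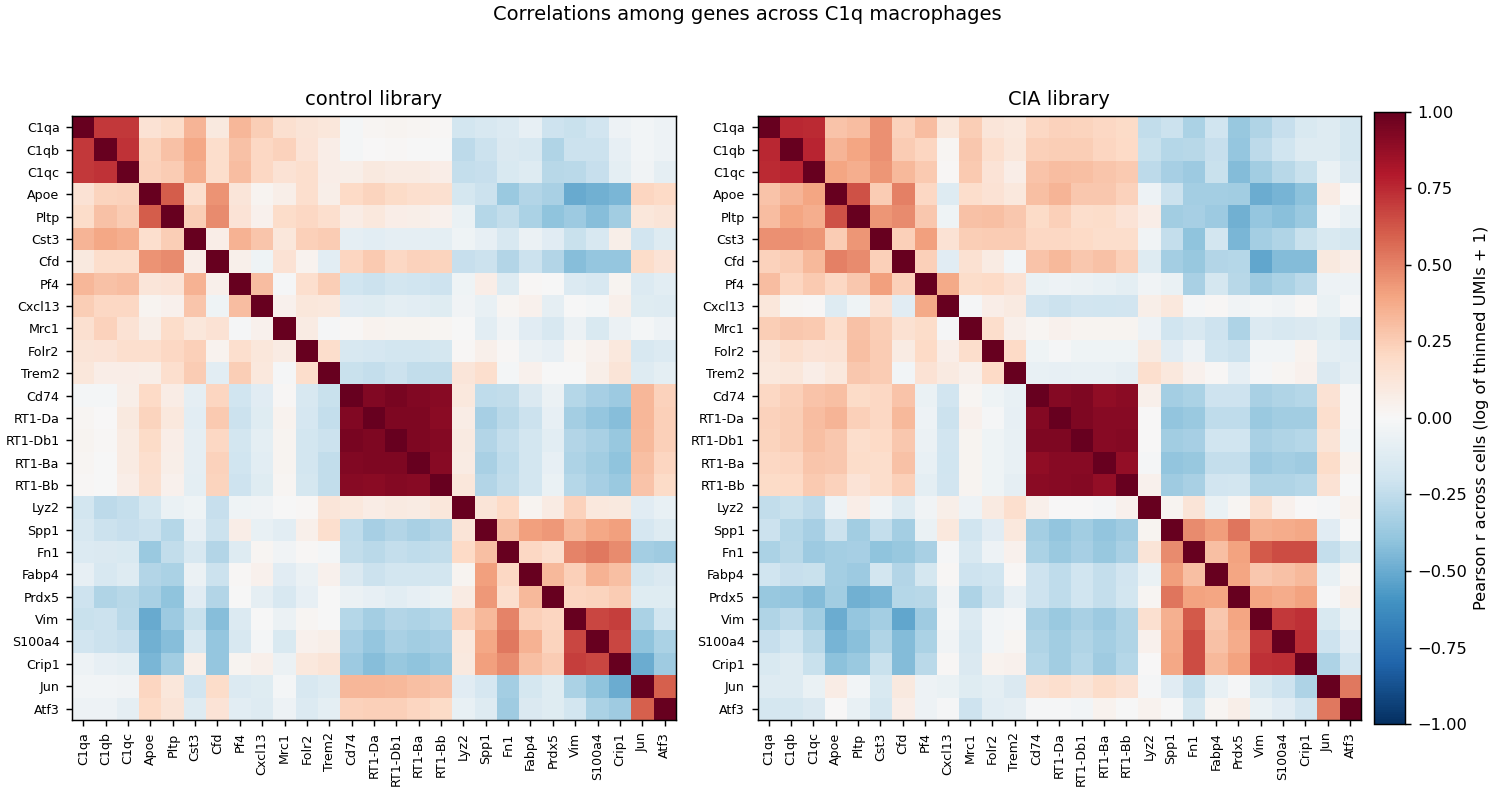
Pearson r between genes across C1q macrophages of the control library (left) and the CIA library (right), from log UMIs thinned to an equal depth. Blocks of C1q chains, MHC class II genes, and Vim with S100a4 and Crip1 stand out in both panels, and Apoe runs against the last block.

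Between the libraries, CIA C1q macrophages held less RNA of immediate-early, heat-shock and inflammatory response genes, and more of Spp1, Fn1, Lrp1 and a few surface and lipid-mediator genes. Of 7284 genes measured, 48 were higher in CIA (0.659%) and 241 were lower (3.31%), at a median log2 ratio of 0.12 over all genes. Among other Lyz2-high cells, 40 of 9315 genes were higher and 330 lower, and among collagen-rich cells 83 of 11454 were higher and 261 lower. Of the 241 lower genes, 204 were also lower in other Lyz2-high cells and 48 in collagen-rich cells. Of the 48 higher genes, 13 were also higher in other Lyz2-high cells and 1 in collagen-rich cells. These comparisons use the same 2 libraries, so anything that differs between the libraries enters all 3. A gene model of mitochondrial ribosomal RNA, singled out after its values were seen, held 48199 CPM in control and 17619 in CIA C1q macrophages, 42450 and 15969 in other Lyz2-high cells, and 14293 and 9571 in collagen-rich cells. Its part in the other ratios was not tested.

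The markers of the population were near level between the libraries. Apoe stood at a CIA to control ratio of 0.961 (0.957 to 0.966), Trem2 at 1.21 (1.17 to 1.25) and Folr2 at 1.17 (1.13 to 1.21). Cd74 stood at 1.10, Pf4 at 0.892 and Adgre1 at 0.991. Of the lists, complement (16 measured, median 0.20), lysosome and cathepsins (24, 0.10), MHC class II (10, 0.18), growth factor and cytokine receptors (17, 0.37), interferon response (15, 0.14) and iron and haem (13, 0.08) had 0 members past the rule in either direction.

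Immediate-early genes, switched on within minutes by many stimuli, made up the largest block. Of 23 measured, 17 were lower in CIA and 0 were higher, at a median of -1.38. In other Lyz2-high cells 15 of 23 were lower (median -1.12), and in collagen-rich cells 12 of 23 (median -1.0). Atf3, a stress-induced factor, went from 1989 CPM in control to 522 in CIA, 3.81-fold lower (3.69 to 3.94). Jun fell from 2408 to 939 CPM, Klf6 from 1799 to 446 CPM and the nuclear receptor gene Nr4a3 from 18.5 to 1.56 CPM. Fos stood at 1869 and 995 CPM and Egr1 at 298 and 152 CPM, which did not pass. Atf3 was found in 86.1% (82.2 to 89.5) of thinned control and 52.1% (48.9 to 55.3) of thinned CIA C1q macrophages (unthinned 92.0% and 64.8%), against 32.2% and 19.0% of collagen-rich cells.

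Heat-shock genes encode chaperones that respond to misfolded protein. Of 10 measured, 6 were lower in CIA (Hspa8, Hspb1, Hsph1, Dnajb1, Dnaja1 and Bag3) and 0 were higher, at a median of -1.27. The counts were 5 of 10 in other Lyz2-high cells (median -1.22) and 2 of 11 in collagen-rich cells (median -0.38). Hsph1, which encodes a large co-chaperone, went from 908 to 72.1 CPM, 12.6-fold lower (11.7 to 13.6). It was 10.2-fold lower in other Lyz2-high cells and 1.39-fold lower in collagen-rich cells, the last of which did not pass. After thinning, Hsph1 was found in 72.6% of control and 19.8% of CIA C1q macrophages (unthinned 84.5% and 39.7%), and in 31.0% and 28.4% of collagen-rich cells. The difference between these cell groups was not tested. Dnaja1 went from 1188 to 205 CPM and Bag3 from 303 to 51.6 CPM.

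Inflammatory response genes were lower as well. Of 16 cytokines and effectors, 6 were lower (Nlrp3, Ptgs2, Tnfaip3, Nfkbia, Nfkbiz and Socs3) and Arg1 was higher, at a median of -0.76. In other Lyz2-high cells 8 of 18 were lower, these 6 among them, and 0 were higher (median -0.89). In collagen-rich cells 5 of 17 were lower (median -0.15). The NF-kB inhibitor genes gave the clearest values: Nfkbia went from 3636 to 999.6 CPM, Nfkbiz from 350 to 57.4 CPM and Nfkbid from 70.5 to 5.17 CPM. Rel, a subunit of NF-kB, fell from 196 to 23.0 CPM, 8.52-fold (7.39 to 9.85). Il1b stood at 163 and 83.4 CPM, a ratio of 0.514 that did not pass. Tnf had 0 UMIs in control and 1 cell with a UMI in CIA, too few to be measured.

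Of 16 chemokines, 6 were lower (Ccl3, Ccl4, Cxcl1, Cxcl2, Cxcl3 and Cxcl10) and 2 were higher (Ccl24 and Cxcl9). In other Lyz2-high cells 5 of 19 were lower, all of those 6 but Ccl3, and Ccl24 was higher. In collagen-rich cells 0 of 18 were lower and 3 were higher. Cxcl1, which draws neutrophils, went from 936 to 207 CPM, Cxcl2 from 1457 to 462 CPM, and the interferon-induced Cxcl10 from 111 to 19.9 CPM. Ccl24 went from 0.549 to 14.7 CPM, a ratio of 26.8 (9.01 to 132), from 2 control and 36 CIA cells, and without the top cells its log2 ratio moved from 4.75 to 5.95. It was also higher in other Lyz2-high cells, by 2.51. Cxcl9, another interferon-induced chemokine, went from 7.68 to 21.1 CPM, with 73.8% of its control UMIs in 1 cell; without the top cells its log2 ratio moved from 1.46 to 3.15. Cxcl13 stood at 420 and 521 CPM, a ratio of 1.24. Its log2 ratio was 0.31 over summed UMIs and -0.12 by the mean of per-cell CPM, so its direction rests on the weighting of cells.

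Secreted growth factors were lower for 6 of 17 (Vegfa, Hbegf, Areg, Gdf15, Csf1 and Bmp2) and higher for Fn1. In other Lyz2-high cells the same 6 were lower among 19 measured, and 2 were higher. In collagen-rich cells 1 of 18 was lower (Gdf15) and 2 were higher. Areg, an EGF-receptor ligand, went from 32.4 to 1.66 CPM, 19.5-fold lower (11.9 to 34.3), with 39.5% of the control UMIs in 1 of 39 cells. Gdf15, a stress-induced cytokine, went from 1221 to 264 CPM. Vegfa, which drives vessel growth, went from 73.7 to 18.6 CPM, Hbegf from 77.2 to 21.4 CPM and the macrophage growth factor gene Csf1 from 78.0 to 21.9 CPM. Hbegf was 3.20-fold lower in other Lyz2-high cells as well, but stood 2.43-fold higher in collagen-rich CIA cells. Of 25 transcription factors, 3 were lower (Id3, Klf4 and Bhlhe40) and 0 were higher. Mmp12, the macrophage elastase gene, went from 555 to 222 CPM with a ratio of 0.922 in other Lyz2-high cells, and Plau, the urokinase gene, from 80.9 to 25.5 CPM.

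**Figure D5:**
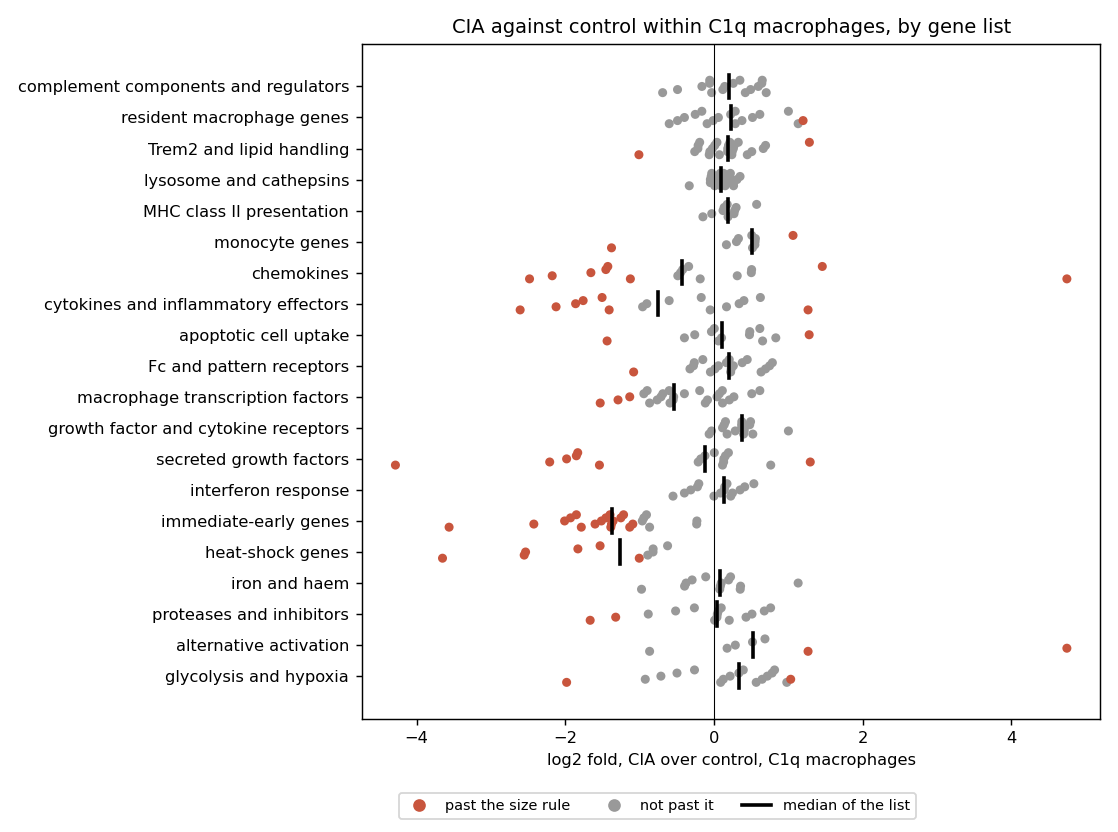
Each point is a measured gene of a fixed list, placed by its log2 ratio of CIA over control in C1q macrophages (x axis). Coloured points passed the size rule and black bars are list medians; immediate-early and heat-shock genes lie to the left with medians of -1.38 and -1.27.

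On the higher side, Spp1 went from 2563 to 6233 CPM, a ratio of 2.43 (2.39 to 2.48). Other Lyz2-high cells gave a like ratio of 2.51, and collagen-rich cells 1.22. Fn1, which encodes fibronectin, went from 1227 to 3008 CPM and Lrp1, an endocytic receptor of Apoe and dying cells, from 251 to 610 CPM, each with a ratio of 2.4 to 2.5 in both C1q macrophages and other Lyz2-high cells. In collagen-rich cells the ratio was 1.79 for Fn1 and 1.12 for Lrp1, neither of which passed. All 3 genes passed in C1q macrophages and in the other Lyz2-high cells.

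Other higher genes had smaller ratios outside the C1q macrophages, a difference that was not tested. Ltc4s went from 59.1 to 151 CPM, a ratio of 2.56 (2.27 to 2.89) against 1.495 in other Lyz2-high cells. After thinning it was found in 6.65% (4.31 to 9.73) of control and 20.4% (17.9 to 23.1) of CIA C1q macrophages (unthinned 11.6% and 28.9%), against 0.4% and 0.8% of collagen-rich cells. Siglec1, the sialic acid receptor CD169, went from 26.4 to 68.1 CPM, a ratio of 2.58 (2.16 to 3.12) against 1.86. Lyve1 went from 32.4 to 74.3 CPM, a ratio of 2.29 (1.95 to 2.72) against 1.91, and was under 2-fold when each cell was given equal weight (log2 ratio 0.89 against 1.2 over summed UMIs). Ramp1, a partner of the receptor for the neuropeptide CGRP, went from 41.7 to 97.1 CPM, a ratio of 2.33 against 1.15. Flna, which encodes filamin A, went from 85.8 to 202 CPM, a ratio of 2.36 against 1.685, and Vcan from 75.9 to 159 CPM, a ratio of 2.09 against 1.77 that fell just short of 2-fold with TMM scaling (log2 ratio 1.06, rounded 1.0 with TMM).

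Some CIA to control ratios rested on 1 cell, and some belonged to genes known as markers of other cell types. Arg1, the arginase gene, went from 25.1 to 60.2 CPM, but 1 CIA cell held 28.5% of its UMIs, and without the top cells the log2 ratio moved from 1.26 to 0.95. The haemoglobin genes Hba-a2 (2 gene models) and Hbb passed as higher, yet 1 CIA cell held 89.8% to 94.6% of their UMIs, and without the top cells their log2 ratios were -0.50 (Hba-a2), -0.86 (its second model) and -1.25 (Hbb). The 3 detected erythroid markers summed to 39.9 CPM in control and 236 in CIA. The cartilage genes Chad, Snorc and Col2a1 were lower in CIA. Chad, a matrix protein of cartilage, went from 66.2 to 0.390 CPM and Col2a1, the gene of type II collagen, from 124 to 14.2 CPM, with 53.1% of the CIA UMIs in 1 cell; without the top cells its log2 ratio moved from -3.13 to -4.13. In collagen-rich cells Chad was 106-fold lower and Col2a1 16.1-fold lower, and in other Lyz2-high cells 80.5-fold and 22.5-fold. Fcrla, an Fc receptor-like gene of B cells, went from 19.6 to 0.878 CPM with 36.4% of its control UMIs in 1 cell, while the B-lineage sum went from 6.77 to 0.293 CPM. What free RNA adds to these values was not tested.

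The remaining named genes lower in CIA had various roles. Ifrd1, an interferon-related regulator, went from 376 to 44.8 CPM, Zfand2a, which is induced with heat-shock genes, from 359 to 47.6 CPM, and the small GTPase gene Gem from 162 to 22.9 CPM. Spry1, a brake on growth factor signalling, went from 54.5 to 6.05 CPM and Ciart, a circadian repressor, from 40.3 to 5.37 CPM. In other Lyz2-high cells these 5 genes were 5.87-fold to 7.45-fold lower, and in collagen-rich cells 1.37-fold to 2.65-fold.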

How the data were processed

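The authors deposited 1 matrix of unnormalised UMI counts, genes by cells, for each of 2 libraries. Per the labels' protocols, TrypLE at body warmth released the cells and the kit was Chromium 3', version 2; per the submitters' processing notes the build was mRatBN 7.2. The aligner, counting and strand handling were not given in the sources used here, so reads of overlapping or near-identical genes (haemoglobin, RT1) may be split. The matrices held 76927821 control and 105752977 CIA UMIs over 5456 and 8622 barcodes. The 18147 genes listed in both were compared.

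Cells over 20% mitochondrial UMIs, counted over symbols beginning with Mt- (45 and 47), and doublets marked by Scrublet (62 and 166, 1.15% and 1.94%) were removed. UMIs were summed per library and cell group, scaled to CPM, and compared by ratios with exact conditional 95% intervals; the size rule stands in the report. The calculation was tested on simulated data. Named genes were the 12 highest and lowest against other Lyz2-high cells, the 15 highest and lowest between libraries, up to 4 passing members per list, and markers. Some genes are not reported here. Genes without a symbol (3 higher and 12 lower in CIA) were counted, not named. Members, lists and collagen-rich cells were chosen with earlier results of these data known. A few further genes, and the genes lower than in C1q-low cells, were named after their values were seen.

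Alternatives covered limits for C1q and Lyz2, all barcodes, scaling, the UMI minimum, cell weighting, the top cell and cells with over 1% of another type's markers. Python 3.11.15, numpy 2.4.6, scipy 1.17.1, pandas 2.3.3, scanpy 1.11.5, matplotlib 3.10.9, R 4.3.3 and edgeR 4.0.16 (TMM factors only) were used.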

Additional observations from a re-analysis of the deposited data

How the results depend on the processing

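No paired analysis was possible because each group had 1 library. Leaving out a replicate was not possible for the same reason. With a limit of 2 C1q UMIs, C1q macrophages were 7.59% of control and 13% of CIA kept cells, and 36.1% and 35.1% of Lyz2-high cells. With a limit of 5 they were 10.4% of CIA kept cells and 28.1% of CIA Lyz2-high cells. A Lyz2 limit of 10000 CPM gave 7.50% of control kept cells, and one of 40000 CPM gave 5.14% in control and 9.55% in CIA. Without a UMI minimum 373 genes were lower in CIA. Against C1q-low cells 44 genes were lower, with cycling cells absent from both sides by construction. Some genes changed sign between the libraries, among them Cxcl13 by the mean of per-cell CPM (log2 ratio 0.31 to -0.12). Vsig4 did so without the top cells (-0.49 to 0.69). The haemoglobin genes changed sign too. Between the libraries, the second Hba-a2 model stood at a log2 ratio of -0.86 without the top cells and -0.91 without cells rich in markers of other types, Hba-a2 at -0.50 and -0.54, and Hbb at -1.25 and -1.28. Against other CIA Lyz2-high cells, Hba-a2 stood at -0.36 by the mean of per-cell CPM, -0.23 without the top cells and -0.22 without cells rich in other markers, and Hbb at -0.09 and -0.06 under the last 2. Single genes were followed under other settings for 79 of the called genes, those named or on the lists, and the other calls were followed as counts only. Between the libraries, of these 79, 6 dropped under 2-fold by the mean of per-cell CPM (Lyve1, Hbb, Arg1, Plin2, Clec4e and Bnip3) and 2 under TMM (Vcan and Bnip3). Depth limits genes under about 100 UMIs, Cd163 and Tnf among them.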
